A study of Mus musculus with 8 samples.

Results

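The stretches described here are the genomic DNA that lay in lamina-associated domains (LADs) of 3T3-L1 adipocytes after double knockdown of Tmem120a and Tmem120b, and in LADs of no other condition of the series. They were selected on the 4 deposited LAD lists, base by base: inside a LAD of the double knockdown list, outside every LAD of the preadipocyte, adipocyte and Tmem120a knockdown lists, and at least 8 kb long after adjacent pieces were merged. The rule gave 2327 such stretches of 67.02 Mb in all, out of 23853 stretches of a constant pattern across the lists. They made up 2.52% of the genome and 5.77% of the 1161 Mb in LADs of the double knockdown list. The presence in 1 list and the absence from 3 lists were fixed by this selection and are given as description only.

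3T3-L1 is an established mouse fibroblast line that turns into fat cells in culture after induction with insulin, dexamethasone, IBMX and rosiglitazone. LaminB1-DamID was done in 4 conditions, each with 1 Dam and 1 LaminB1-Dam library, 8 libraries in all. The conditions were untreated, undifferentiated preadipocytes at day 0, and adipocytes at day 9 of differentiation that carried a control non-target shRNA, a Tmem120a shRNA or the Tmem120a/b shRNA. The lentivirus with Dam or LaminB1-Dam was given at day 6 of differentiation, or to untreated preadipocytes. By these labels the preadipocytes differed from the adipocytes in the shRNA as well as in induction. No condition was repeated, so a difference between lists cannot be told apart from a difference between single cultures or libraries, and no test between conditions was possible. The lists hold positions without a score, so read depth is unknown, and they hold no measure of expression, of knockdown or of lipid content against which the labels could be checked.

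LADs are long tracts of DNA that touch the lamina, the mesh of lamin proteins beneath the inner nuclear membrane, and they are on the whole gene-poor, AT-rich and little transcribed. In DamID the adenine methylase Dam, fused to LaminB1, marks GATC sites near the lamina, and free Dam reports how open the same sites are. Tmem120a and its paralog Tmem120b encode transmembrane proteins of the nuclear envelope that are abundant in fat, and Tmem120a is known for a role in adipocyte differentiation.

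The resolution of the borders was set by GATC sites, since the listed intervals are built from fragments between them. Of the 4654 borders of the stretches, 99.9% fell at a GATC of the mm9 reference sequence, within 6 bp, and the remaining 4 lay beside unsequenced bases. The following sequences show 30 bases on each side of a border, on the plus strand and with GATC in capitals, for the stretch in Cdh13, the stretch that holds Crybg3, the stretch with the most protein-coding genes and the shortest stretch kept. They are chr8:121205891-121348422, chr16:59478610-59609667, chr1:90105420-90134320 and chr15:101517652-101525686.
Cdh13 stretch, start: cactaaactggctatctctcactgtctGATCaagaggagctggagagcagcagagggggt
Cdh13 stretch, end: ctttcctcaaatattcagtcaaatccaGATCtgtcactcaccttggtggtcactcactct
Crybg3 stretch, start: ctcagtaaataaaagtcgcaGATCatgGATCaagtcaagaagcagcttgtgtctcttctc
Crybg3 stretch, end: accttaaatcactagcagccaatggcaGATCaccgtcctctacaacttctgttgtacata
Ugt1a stretch, start: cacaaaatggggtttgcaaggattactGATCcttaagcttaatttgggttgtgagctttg
Ugt1a stretch, end: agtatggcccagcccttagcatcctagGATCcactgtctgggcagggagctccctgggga
Krt6a stretch, start: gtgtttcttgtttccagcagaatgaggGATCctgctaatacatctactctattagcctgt
Krt6a stretch, end: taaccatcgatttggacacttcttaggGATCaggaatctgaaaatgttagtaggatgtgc

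Within the stretches GATC occurred 2.42 times per kb, against 2.51 per kb in the genome, and the median stretch held 58 sites (range 8 to 644). No stretch therefore held fewer than 8 GATC sites of the reference sequence, and how many of these sites had reads is unknown.

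The stretches were mostly short. Their median length was 24.0 kb, the middle range ran from 16.7 to 36.2 kb, and 239 of them were 50 kb or longer. Only 22 reached 100 kb, and the longest was 219 kb. Just inside the limit of 8 kb lay stretches of 8.04 and 8.06 kb and just outside it pieces of 7.97 and 7.99 kb, and 586 shorter pieces of 2.26 Mb in all were left out.

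The same rule applied to each other list gave fewer stretches: 1471 of 46.9 Mb for the preadipocyte list, 1265 of 44.3 Mb for the adipocyte list and 1610 of 42.9 Mb for the Tmem120a knockdown list. The share of its own LAD length that a list held alone was 3.93%, 3.70% and 3.69%, below the 5.77% of the double knockdown list. The order changed among long stretches. At 50 kb or more the adipocyte list had 249 and the double knockdown list 239, and at 100 kb or more there were 22 in the double knockdown list, 4 in the Tmem120a knockdown list, 60 in the adipocyte list and 49 in the preadipocyte list. The number of LADs differed between the lists as well, with 3914, 2542, 5723 and 6971 in the same order, while their summed lengths ranged only from 1161 to 1198 Mb. The part of this difference in the count of stretches was not tested.

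**Figure D1:**
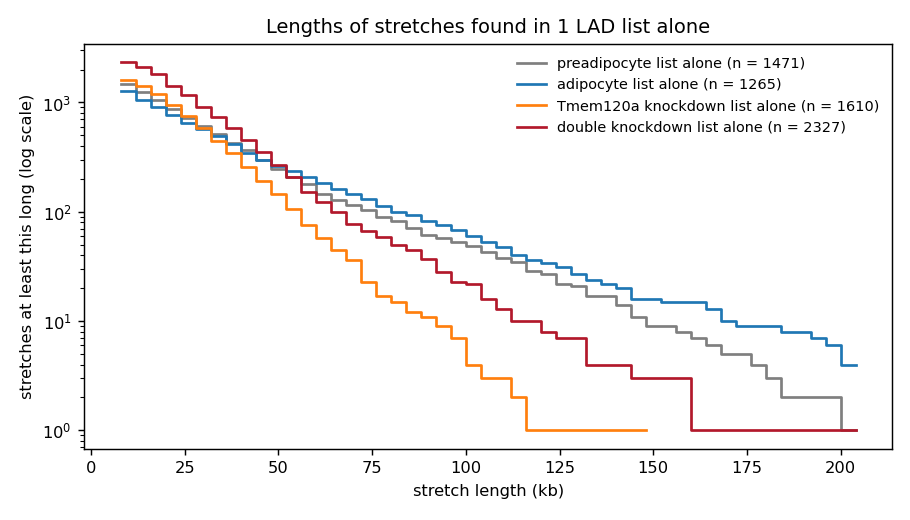
Number of stretches at least as long as the length on the x axis (kb), on a log scale, for the stretches that each of the 4 LAD lists held alone. The double knockdown line is the highest at 8 kb (2327 stretches) and falls below the adipocyte line at 50 kb (239 against 249), and the Tmem120a knockdown line falls fastest.

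The new stretches were in near equal parts separate LADs and extensions of LADs. A whole LAD of the double knockdown list formed 1113 stretches, or 47.8% (95% Wilson interval 45.8 to 49.9%), with a median length of 27.0 kb and 35.5 Mb in all. Another 981 stretches (42.2%) continued on one side into DNA that was a LAD in another list too, and 233 (10.0%) did so on both sides, joining flanking LAD parts. These intervals cover only the counting of stretches, and neighbouring stretches are not independent. They carry no error between cultures. The Tmem120a knockdown list alone gave 46.0%, 44.3% and 9.63% for the same classes. The adipocyte list alone differed in form: 11.5% were whole LADs and 47.6% lay between LAD parts on both sides.

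Whole-LAD stretches often lay far from LADs of the other conditions. Their median distance to the nearest LAD of any other list was 93.0 kb, 64.3% were at least 50 kb away and the farthest was 3209 kb away. Over all stretches, the nearest Tmem120a knockdown LAD was at a median of 34.3 kb, the nearest preadipocyte LAD at 61.4 kb and the nearest adipocyte LAD at 156 kb. The stretch touched a LAD of these lists in 26.3%, 22.1% and 10.6% of cases. On the 1447 sides where the host LAD went on beyond the stretch, only the base next to the border was read. That base lay in a Tmem120a knockdown LAD on 45.8%, a preadipocyte LAD on 37.3% and an adipocyte LAD on 17.8%. Exactly 1 of the other lists had a LAD at that base on 99.0% of sides. The rule nearly fixes this value, since a stretch ends there because a LAD of another list begins. These shares thus name the list whose border came first and do not describe the DNA farther on. The lists differ in their number of LADs, which sets how near a LAD can be, so this order is a description of the lists.

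The DNA beside the stretches showed the same order. In the first 5 kb outside the edges, 6.60% of bases lay in adipocyte LADs, 12.8% in preadipocyte LADs, 16.0% in Tmem120a knockdown LADs and 29.999% in double knockdown LADs. At 195 to 200 kb from the edges the values were 22.0%, 26.7%, 26.7% and 30.5%. Cover by double knockdown LADs thus stayed between 26.0% and 30.6% over the windows, whereas that of the other lists was lowest beside the stretch. The stretches were chosen to be free of the other 3 lists, so low cover beside them is in part fixed by the rule.

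**Figure D2:**
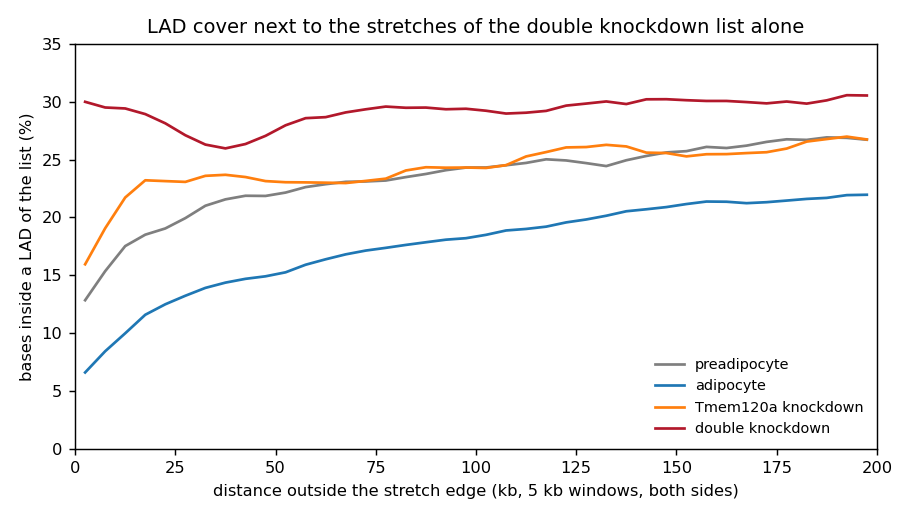
Percent of bases inside LADs of each list (y axis) by distance outside the edges of the 2327 stretches (x axis, kb, in 5 kb windows over both sides). The adipocyte line starts lowest (6.60%) and the double knockdown line highest (29.999%), and the preadipocyte and Tmem120a knockdown lines both end at 26.7% at 195 to 200 kb.

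The stretches lay on nearly all chromosomes, at uneven density. They were found on 20 of 21 chromosomes, all but Y, and in 1221 of 2665 bins of 1 Mb (45.8%). At least 100 kb of stretches lay in 166 bins and at least 200 kb in 17. Whether they gather more than an even placement would give was not tested. Their share of a chromosome was highest on chromosome 18 (3.74%), followed by chromosome 8 (3.24%) and chromosome 13 (3.19%), and among the chromosomes that hold stretches it was lowest on chromosome 14 (1.94%). Of all double knockdown LADs, 2211 (31.7%) held a stretch, and 2105 of these held exactly 1. A LAD at chr9:88473796-89103465, 630 kb long, was 1 of 2 that held 4 stretches.

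The densest bin lay at 95 to 96 Mb of chromosome 8, with 395 kb of new LAD in 8 stretches. The bin had 125 kb of preadipocyte LAD, 24.5 kb of adipocyte LAD, 122 kb of Tmem120a knockdown LAD and 621 kb of double knockdown LAD. The bin was picked for its new LAD, so the high double knockdown value follows from the choice. Its genes, named here after their values were seen, are Irx6, an Iroquois homeobox gene, Mmp2, a gelatinase of the extracellular matrix, Lpcat2, a lysophospholipid acyltransferase, Slc6a2, the noradrenaline transporter, the carboxylesterase genes Ces1a to Ces1h, Capns2 and 2 predicted genes.

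The sequence of the stretches was richer in GC than that of constant LADs. GC content was 43.0% over all stretches, with a median of 42.8% per stretch and an SD of 3.34 across stretches. LADs shared by all 4 lists had 39.2%, DNA in LADs of no list 44.2% and the whole genome 41.8%. Stretches that other lists held alone had 42.0% (preadipocyte), 39.0% (adipocyte) and 42.5% (Tmem120a knockdown). No test was made of these differences. Single stretches ranged from 31.9% to 54.0% GC.

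**Figure D3:**
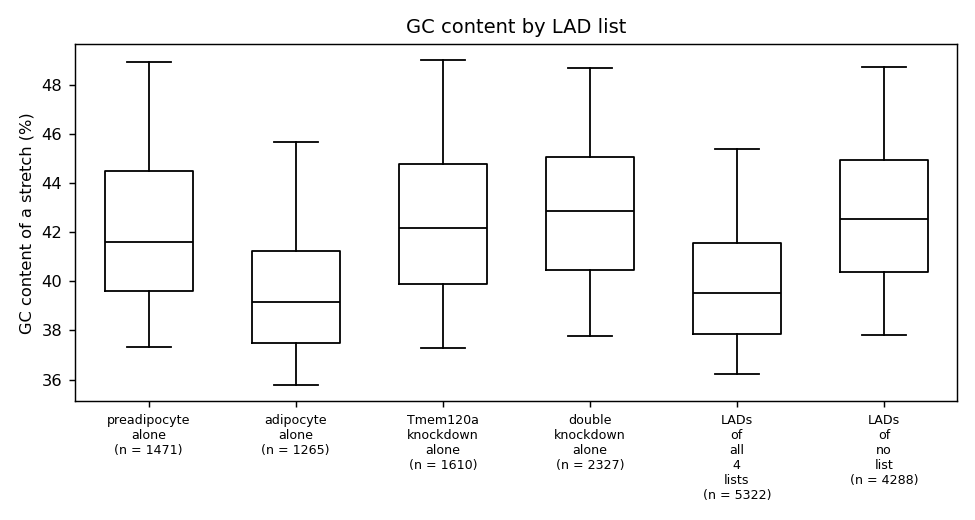
GC content per stretch (y axis, %) for the stretches of each list alone, for LADs of all 4 lists and for DNA in LADs of no list. Boxes show the quartiles with the median and whiskers the range between the outer 5% of stretches on each end, and the double knockdown stretches have a median of 42.8% against 39.5% in LADs of all 4 lists.

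Median GC was 43.1% in whole LADs, 42.6% in stretches joined on one side and 42.3% in those joined on both sides, with 8.37, 9.31 and 9.21 gene starts per Mb. No protein-coding gene met 36.3%, 40.9% and 42.5% of the stretches of these classes. Whole LADs at least 50 kb from any other LAD had a median GC of 43.4% and 8.22 starts per Mb, and those nearer had 42.7% and 8.63. The 239 stretches of 50 kb or more held fewer starts per Mb (6.96) than the shorter ones (9.40).

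Gene density in the stretches was close to that of the genome and above that of constant LADs. There were 8.80 starts of protein-coding genes per Mb of stretch, against 8.42 in the genome, 4.09 in LADs of all 4 lists and 13.8 in DNA of no list. Tmem120a knockdown stretches had 8.29 starts per Mb, preadipocyte stretches 7.75 and adipocyte stretches 2.91. No protein-coding gene met 904 stretches (38.8%), exactly 1 met 1193, and the largest number in a stretch was 10.

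Of 22367 protein-coding genes, 1502 (6.72%) had at least a base of their body in a stretch, and the start lay inside for 590 (2.64%). For 889 genes (3.97%) the body met a stretch and no LAD of the other 3 lists, so in these lists they came into contact with LADs in the double knockdown alone. A stretch held at least 50% of the body for 502 genes and the whole body for 247. Genes that met a stretch were long, with a median of 60.4 kb against 15.4 kb over all genes, and a long body has more bases with which to meet one. The median gene had 28.5% of its body inside.

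Promoters inside the stretches were of both common kinds, rich and poor in CG dinucleotides. In the 300 bases from 250 before to 50 after the annotated start, CG occurred at 0.6 or more of its expected frequency in 237 of the 590 genes whose start lay in a stretch (40.2%, Wilson interval 36.3 to 44.2%). The share was 45.2% of all genes, 9.43% of genes with a start in LADs of all 4 lists and 56.4% of those with a start in LADs of no list. For the starts in adipocyte, Tmem120a knockdown and preadipocyte stretches it was 20.2%, 36.0% and 42.4%. The following sequences are the 200 bases before the annotated start of 3 genes that lay wholly inside stretches, on the strand of the gene and with CG in capitals. They show a brown fat gene, a gene of lamin processing and a gene of the respiratory chain, at chr8:85814047-85814246, chr4:120770847-120771046 and chr13:67006315-67006514 of mm9.
Ucp1: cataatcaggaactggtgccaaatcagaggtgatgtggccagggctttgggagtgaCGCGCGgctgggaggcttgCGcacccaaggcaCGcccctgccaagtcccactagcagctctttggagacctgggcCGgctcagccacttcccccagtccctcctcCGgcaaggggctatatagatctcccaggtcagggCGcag
Zmpste24: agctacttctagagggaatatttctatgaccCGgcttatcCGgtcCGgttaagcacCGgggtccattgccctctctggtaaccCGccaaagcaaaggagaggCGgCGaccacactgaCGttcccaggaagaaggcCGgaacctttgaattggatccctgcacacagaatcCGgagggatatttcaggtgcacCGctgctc
Uqcrb: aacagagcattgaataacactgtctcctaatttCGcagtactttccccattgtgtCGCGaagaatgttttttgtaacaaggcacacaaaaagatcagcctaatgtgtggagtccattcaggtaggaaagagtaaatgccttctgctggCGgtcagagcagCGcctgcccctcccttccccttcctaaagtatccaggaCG

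The 300-base window of Ucp1 had a CG frequency of 0.48 of the expected one, and those of Zmpste24 and Uqcrb had 0.63 and 0.61. A count of CG in a window says nothing of methylation, which DamID does not measure.

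**Figure D4:**
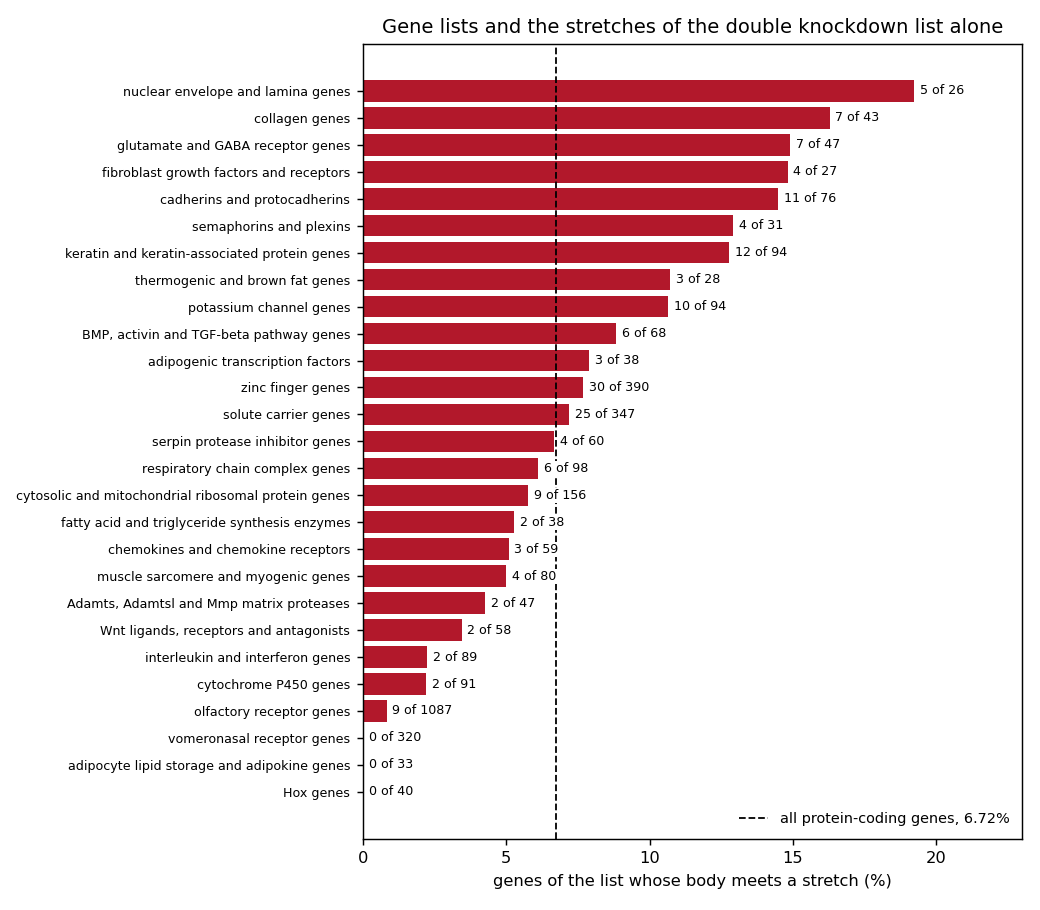
Percent of the genes of each list whose body meets a stretch (x axis), with the counts beside the bars, for lists of at least 20 genes. The dashed line marks the 6.72% of all protein-coding genes, nuclear envelope genes are highest with 5 of 26, and the 3 lists at the bottom have no gene in a stretch.

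Genes of the nuclear envelope and lamina were met by stretches in 5 of 26 cases (19.2%), the highest share among the gene lists of at least 20 genes, although it rests on few genes. The share of all genes was 6.72%, and the Tmem120a knockdown stretches met 3 of the same 26 (11.5%). Their level is given as the percent of the gene body in LADs of a list. For Zmpste24, the protease that matures prelamin A, it was 0% in the preadipocyte, adipocyte and Tmem120a knockdown lists and 100% in the double knockdown list. For Lmnb1, which encodes lamin B1, the protein fused to Dam in these experiments, it was 0% in the same 3 lists and 95.02% in the double knockdown list. For Lbr, the lamin B receptor that binds heterochromatin at the inner nuclear membrane, it was 0% in the 3 lists and 65.5% in the double knockdown list. These 3 genes had LAD contact in the double knockdown list alone.

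The stretch with Lmnb1, chr18:56869737-56944579, was a whole LAD of 74.8 kb, 386 kb from the nearest preadipocyte LAD, 1293 kb from the nearest adipocyte LAD and 260 kb from the nearest Tmem120a knockdown LAD. The annotated start of Lmnb1 lay outside it. The stretch with Zmpste24, chr4:120727255-120787766, was 60.5 kb long, met 3 genes and continued on one side into a preadipocyte LAD. Syne2 and Syne1, which encode nesprins of the outer nuclear membrane, had smaller parts in stretches, 13.9% and 10.4% of their bodies. Syne1 was in LADs of every list, with 34.5%, 36.4%, 59.9% and 63.3% of its body in preadipocytes, adipocytes, Tmem120a knockdown and double knockdown.

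Thermogenic genes were met in 3 of 28 cases (10.7%), against 6.72% of all genes, and a count of 3 is too small to read a difference from. Ucp1, the uncoupling protein of brown fat mitochondria, had 0% of its body in LADs of the other 3 lists and 100% in those of the double knockdown list. Its stretch at chr8:85810058-85860170 was a whole LAD of 50.1 kb. A preadipocyte LAD lay 10.4 kb away, a Tmem120a knockdown LAD 44.5 kb away, and the nearest adipocyte LAD 1096 kb away. Ppara, a nuclear receptor that drives fatty acid oxidation, had 39.3% of its body in the double knockdown list and 0% in the others. Prdm16, a regulator of brown fat identity, had 21.7% in preadipocyte LADs, 0% in adipocyte and Tmem120a knockdown LADs and 41.7% in double knockdown LADs.

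**Figure D5:**
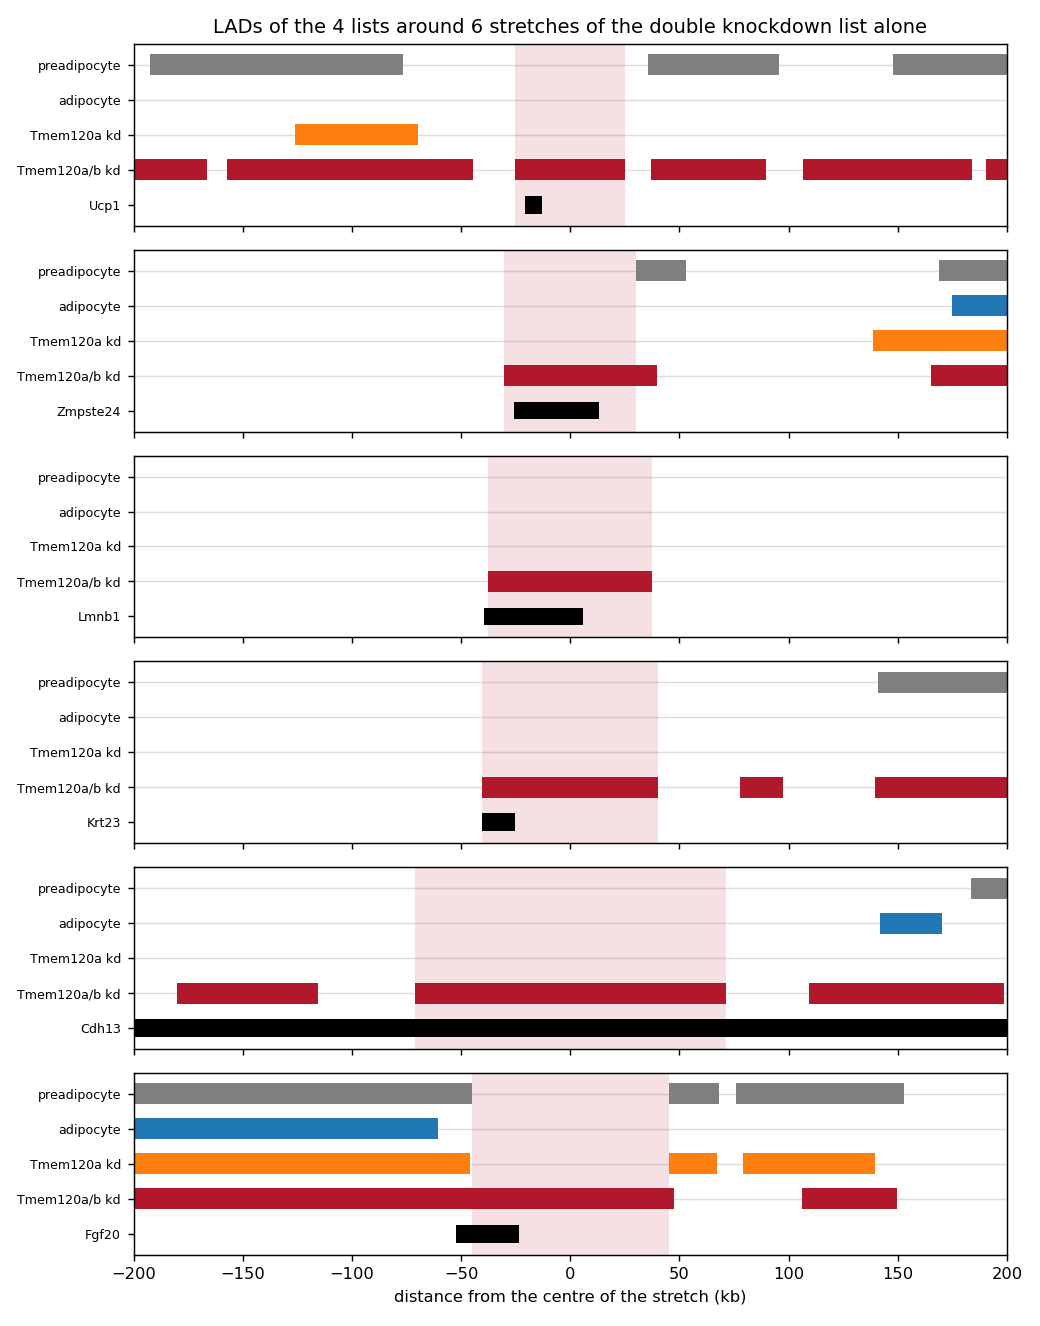
LADs of the 4 lists (coloured bars) within 200 kb of the centre of 6 stretches, with the stretch shaded and the body of the named gene in black below. The x axis gives the distance from the centre in kb, and around Ucp1, Lmnb1, Krt23 and Cdh13 the stretch is a whole LAD of the Tmem120a/b knockdown (kd), at Zmpste24 it continues into a preadipocyte LAD on one side, and at Fgf20 the LAD goes on beyond the stretch on both sides.

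Among 38 adipogenic transcription factors, 3 met a stretch (7.89%), near the 6.72% of all genes. They were Prdm16, Nfib, a nuclear factor I protein with 9.98% of its body in stretches, and Rora, an orphan nuclear receptor with 9.94%. Rora lay largely in LADs of other lists too. Its body was 72.0% in preadipocyte, 6.46% in adipocyte, 54.6% in Tmem120a knockdown and 71.3% in double knockdown LADs. Nfib had 4.62% in Tmem120a knockdown LADs and 0% in preadipocyte and adipocyte LADs. None of 33 genes for lipid storage and adipokines met a stretch. Of these 33, 2 met any double knockdown LAD, a contact for which the share of all genes is not given here. Of 38 enzymes of fatty acid and triglyceride synthesis 2 met a stretch. Acsl4, an acyl-CoA synthetase, had 52.4% of its body and Elovl6, a fatty acid elongase, 26.3% in double knockdown LADs, and both had 0% in the other 3 lists. Neither of the targeted genes, Tmem120a and Tmem120b, met a LAD of any list.

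Of 14 further genes that the study examined by position, 2 met a stretch (14.3%), against 6.72% of all genes. A count of 2 is too small to read a difference from, and the study chose the 14 genes on these samples. Ano5, Cpe, Dctd, Fh1, Klf9, Myh1, Myh2, Myo18b, Parm1, Pla2g12a, Sema3c and Unc13c met no stretch. Ak4, a mitochondrial adenylate kinase, had 17.3% of its body in preadipocyte LADs, 0% in adipocyte and Tmem120a knockdown LADs and 42.6% in double knockdown LADs, and 35.5% of the body formed a stretch. For Jazf1, a zinc finger regulator, the values were 21.5%, 0%, 20.2% and 23.6%, and only 4.47% of the body formed a stretch. The new stretch in both genes continued into a preadipocyte LAD.

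Muscle genes were met in 4 of 80 cases (5%), near the 6.72% of all genes. Pax7, a transcription factor of muscle stem cells, had 22.9% of its body in double knockdown LADs and 0% in the others. Myh13, a myosin of eye muscles, had 2.82% in a stretch.

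Keratins and keratin-associated proteins, which build the intermediate filaments of epithelia and hair, were met in 12 of 94 cases (12.8%), against 6.72% of all genes. All 12 had no LAD contact in the other 3 lists, against 889 of the 1502 genes met (59.2%), and 10 lay wholly inside, against 247 of the 1502. The 12 were short, from 0.732 kb (Krtap3-3) to 15.2 kb (Krt23), against a median of 60.4 kb for the genes met. A short gene fits more easily inside a stretch, and the part of length in these counts was not tested. They came from few places, so they are not independent of each other. A stretch of 80.3 kb at chr11:99339605-99419938 held Krt39, Krt40, Krtap3-2 and Krtap3-3 and 97.9% of Krt23. A neighbouring stretch of 19.7 kb held Krtap9-3 and Krtap2-4, and Krtap4-16 lay in another of 20.96 kb. On chromosome 15 a stretch of 49.9 kb held Krt1 and Krt77 with 77.2% of Krt76, 960 kb from the nearest preadipocyte LAD, 1656 kb from the nearest adipocyte LAD and 154 kb from the nearest Tmem120a knockdown LAD. Krt6a lay in the shortest stretch kept. Keratin-associated genes are near copies of each other, so placement of their reads is uncertain.

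Cadherins and protocadherins, adhesion proteins, were met in 11 of 76 cases (14.5%), against 6.72% of all genes. Cdh13, a cadherin without a transmembrane part that binds adiponectin, had the longest part in stretches of any gene, 349 kb in 7 stretches. Its body of 1041 kb was 13.6% in preadipocyte, 2.74% in adipocyte, 20.7% in Tmem120a knockdown and 52.7% in double knockdown LADs. The single exon genes Pcdhb15 to Pcdhb19 lay wholly in 1 stretch of 36.7 kb on chromosome 18, beside an adipocyte LAD. Cdh5, the cadherin of blood vessel lining, had 55.7% of its body in a stretch.

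Further lists of long genes had shares above 6.72%, and most of their members were met over a minor part of the body. Collagens were met in 7 of 43 cases (16.3%), with Col6a4 and Col13a1 the highest at 38.3% and 34.2% of the body in stretches and no start inside. Glutamate and GABA receptor genes were met in 7 of 47 (14.9%), led by Gabrr1 (28.9%) and Gabbr2 (23.8%). Potassium channel genes were met in 10 of 94 (10.6%). The Tmem120a knockdown stretches met 6 collagen, 5 glutamate and GABA receptor and 10 potassium channel genes. Kcnu1, the channel Slo3 of sperm, had 90.5% of its body in a whole LAD of 79.9 kb and 0% in the other lists. Kcnh5, a voltage-gated channel, had 46.0% in a stretch of 129 kb.

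Among signalling genes, fibroblast growth factors and receptors were met in 4 of 27 cases (14.8%), semaphorins and plexins in 4 of 31 (12.9%), BMP, activin and TGF-beta genes in 6 of 68 (8.82%) and Wnt genes in 2 of 58 (3.45%). The share of all genes was 6.72%. Fgf6, a growth factor of muscle, lay wholly in a whole LAD of 22.0 kb and Fgf20 had 74.9% of its body in a stretch of 90.2 kb. Gdf10, a BMP-like ligand, had 46.8% of its body in a stretch and no LAD contact in the other lists. Ror2, a Wnt receptor, had 32.5% of its body in stretches, but 50.8% in Tmem120a knockdown LADs against 42.9% in all double knockdown LADs. Dkk2, a Wnt pathway regulator, had 17.4% in a stretch and 33.3% in preadipocyte LADs. Sema6a had 24.96% and Plxnc1, a semaphorin receptor, 17.4%. Fgfr2 had 236 kb in 7 stretches, but its annotated body spans 3009 kb, so the value belongs to that gene model.

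Of immune genes, stretches met 3 of 59 chemokine and chemokine receptor genes (5.08%) and 2 of 89 interleukin and interferon genes (2.25%), against 6.72% of all genes. Ccr8, a chemokine receptor of T cells, and Il17f, a cytokine of T helper cells, lay wholly in stretches and had no LAD in the other lists. Il1b had 40% of its body in a stretch and the rest in a preadipocyte LAD. Serpins, inhibitors of proteases, were met in 4 of 60 cases (6.67%), and Serpinb8 lay wholly in a stretch of 41.6 kb. Cytochrome P450 genes were met in 2 of 91 (2.20%), Cyp3a13 with 48.9% and Cyp7b1 with 24.1% of the body in stretches. Both also lay in adipocyte LADs, with 51.1% and 55.1% of the body, against 100% and 40.4% in all double knockdown LADs. Matrix proteases were met in 2 of 47 (4.26%), Adamts17 with 32.8% and Adamts6 with 15.0%. In Tmem120a knockdown LADs lay 16.2% of Adamts17 and 20.9% of Adamts6, against 47.7% and 15.0% in all double knockdown LADs.

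Genes of general cell function appeared at about the 6.72% of all genes. Of all genes met, 59.2% had no LAD in the other 3 lists. Ribosomal protein genes were met in 9 of 156 cases (5.77%), and 8 of the 9 had no LAD in the other lists. Rpl7 and Rps9, of the cytosolic ribosome, and Mrpl18, of the mitochondrial ribosome, lay wholly inside. Respiratory chain genes were met in 6 of 98 cases (6.12%), and Uqcrb, a subunit of complex III, lay wholly in a stretch of 10.5 kb beside a preadipocyte LAD. Solute carriers were met in 25 of 347 cases (7.20%), with Slc34a2, a phosphate transporter, Slc17a2 and Slc18a2, the vesicular monoamine transporter, wholly inside. Zinc finger genes were met in 30 of 390 cases (7.69%), 23 of them without a LAD in the other lists. The 12 wholly inside were Zfp68, Zfp422, Zscan5b, Zfp954, Zfp382, Zfp788, Zfp941, Zfp709, Zfp612, Zkscan4, Zfp160 and Zfp229.

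Few genes of the large chemosensory receptor families met a stretch. Of 1087 olfactory receptor genes 9 met a stretch (0.828%), and of 320 vomeronasal receptor genes none did, against 6.72% of all genes. Of the olfactory receptor genes 89.9% met a double knockdown LAD, and of the vomeronasal receptor genes 92.5%. The share of all genes with such contact is not given here, so these values are description only. The 8 olfactory receptor genes wholly inside were Olfr62, Olfr1358, Olfr1357, Olfr311, Olfr283, Olfr55, Olfr239 and Olfr94. Of 40 Hox genes none met a stretch, against 6.72% of all genes. None of the 40 met any double knockdown LAD, which is likewise description only.

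The longest stretches were mostly poor in protein-coding genes. The first, chrX:122167862-122386442, was a whole LAD of 219 kb with the predicted genes Gm17679 and Gm17693, which lie with copies of Astx transcripts, and its end borders unsequenced bases. Reads in such copied DNA are of uncertain placement. The next, chr17:8132103-8291766 (160 kb), held Rsph3a, a homolog of a radial spoke protein, and 96.3% of Gm1604A, and lay 568, 970 and 107 kb from the nearest preadipocyte, adipocyte and Tmem120a knockdown LADs. A stretch of 157 kb at chr8:36240699-36397575 met no protein-coding gene, and neither did those of 129 kb at chr5:119812136-119941010, 120 kb at chr18:68862330-68982462, 119 kb at chr8:94667008-94786075 and 117 kb at chr4:45581172-45697730. The stretch of 143 kb inside Cdh13 does not reach the start of the gene. The stretch of 131 kb at chr16:59478610-59609667 held the whole of Crybg3 and 66.1% of Mina, a ribosomal oxygenase, 7.42 kb from a preadipocyte and 14.1 kb from an adipocyte LAD. The remaining one of the 10 longest, at chr12:76106405-76235269, was the part of Kcnh5 given above.

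The stretches with the most genes were shorter. The stretch of 28.9 kb at chr1:90105420-90134320 met 10 genes, but 9 of them are Ugt1a genes, which encode glucuronosyltransferases and share their 3′ exons, and the stretch covered those shared ends. Ugt1a10, for example, had 6.21% of its body inside, and the other entry, Heatr7b1, had 30.5%. It was a whole LAD, 2534 kb from the nearest preadipocyte LAD, 2558 kb from the nearest adipocyte LAD and 1308 kb from the nearest Tmem120a knockdown LAD. The stretch of 95.3 kb at chr10:23616728-23712020 met 7 genes and held Taar1 to Taar5 whole, receptors of trace amines, and 79.0% of Vnn1, a pantetheinase. It lay between parts of a 246 kb LAD. The stretch of 19.6 kb at chr5:138692888-138712441 met 6 entries, with BC037034, listed under 2 identifiers, and 0910001L09Rik whole, 79.5% of Gal3st4, a galactose sulfotransferase, 41.6% of Gpc2, a glypican, and 6.20% of BC055004.

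The other genes with the longest parts of their body in stretches were Fam189a1 (160 kb, 39.8% of the body), Fstl4 (139 kb, 32.9%), Smyd3 (137 kb, 24.3%), Myo3b (136 kb, 34.9%), Trappc9 (134 kb, 28.5%), Prdm16 (121 kb, 37.9%), Alpk2 (105 kb, 81.7%), Nckap5 (105 kb, 11.4%) and Rgs6 (103 kb, 19.1%). Alpk2, an alpha-kinase, was the only gene among these with no LAD in the other 3 lists. Smyd3, a lysine methyltransferase, had 0% of its body in preadipocyte and adipocyte LADs, 8.91% in Tmem120a knockdown LADs and 29.4% in double knockdown LADs. Fstl4, a follistatin-like protein, had 8.98%, 17.0%, 42.7% and 78.2% in the same order.

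Of 1577 miRNA genes of the annotation, 33 (2.09%) lay in or met a stretch, or 0.492 per Mb of stretch. The preadipocyte stretches met 28 (0.598 per Mb), the adipocyte stretches 18 (0.406 per Mb) and the Tmem120a knockdown stretches 30 (0.699 per Mb), so per length the double knockdown stretches did not hold the most. Of the 8 in the longest stretches, Mir205 and Mir1a-1 carry an established miRNA name, and the other entries have only clone-derived names and are not given here. The 5 others with a miRNA name, added here after values were seen, were Mir1950, Mir128-1, Mir1958, Mir361 and Mir1896. All 7 named genes had 0% of their length in LADs of the preadipocyte, adipocyte and Tmem120a knockdown lists and 100% in the double knockdown list. Mir205, an epithelial miRNA, lay in a stretch of 82.1 kb (chr1:195264224-195346354) and Mir1a-1, from a muscle miRNA family, in a stretch of 44.0 kb (chr2:180084502-180128469). The mature sequences matched to these genes in the RefSeq table used (build GRCm38.p6), 10 in all, are printed 5′ to 3′ with the seed, bases 2 to 8, in capitals. For Mir1a-1 this is the 5p arm alone, and miR-1a-3p is not printed here.
mmu-miR-205-5p: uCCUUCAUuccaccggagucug
mmu-miR-205-3p: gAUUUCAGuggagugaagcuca
mmu-miR-1a-1-5p: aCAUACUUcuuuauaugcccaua
mmu-miR-128-3p: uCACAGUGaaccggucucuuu
mmu-miR-128-1-5p: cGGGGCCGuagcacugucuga
mmu-miR-361-5p: uUAUCAGAaucuccagggguac
mmu-miR-361-3p: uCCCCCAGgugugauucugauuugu
mmu-miR-1950: uCUGCAUCuaaggauaugguca
mmu-miR-1958: uAGGAAAGuggaagcaguaagu
mmu-miR-1896: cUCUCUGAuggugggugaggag

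No 2 of these 10 mature sequences share a seed. The lists give the position of the miRNA genes and not the amount of any miRNA.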

How the data were processed

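LaminB1-DamID was measured in 3T3-L1 cells under 4 conditions, each with 2 libraries (Dam alone and LaminB1-Dam). Per the labels and the study's methods, the authors mapped reads to mm9 (BWA is named in the processing notes), took the log2 ratio of LaminB1-Dam to Dam per DpnI fragment and called LADs by segmentation with DNAcopy. They deposited 1 list of LAD positions per condition, with no ratio or score, and 2 lists of their own comparison of preadipocytes with adipocytes, which were not used here. The abbreviation in the name of a list gave its condition.

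Stretches were found by subtracting the merged LADs of the other 3 lists from those of the double knockdown list, by bp, and keeping those of at least 8 kb. The members and the gene lists were chosen with earlier results of these data known. The patterns for chemokine and keratin symbols were widened to all such symbols after their values had been seen. Stretches named in the text are the 10 longest, the 5 longest whole LADs, the 3 with the most protein-coding genes and the 2 nearest the length limit on each side. Genes named are those of these stretches (at most 6 each), the 12 with the longest part in stretches, in each list every member wholly inside or else the 2 with the largest part, every gene the study named and the miRNA genes of the longest stretches. A few genes that this rule names are not reported here.

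Genes were 22367 protein-coding and 1577 miRNA genes of GENCODE vM1 on the same assembly (NCBIM37), and sequence was read from that assembly. Mature miRNAs were matched by name to RefSeq (GRCm38.p6). The lists do not state whether they count from 0 or from 1. They were read as counting from 0 and starts are printed counting from 1, so a start may be off by 1 bp. The assembly held no repeat marks, so repeats were not examined. Interval arithmetic used numpy 2.4.6 in Python 3.11.15 and was tested on simulated lists, and plots used matplotlib 3.10.9. Wilson 95% intervals cover counting only. No test was run, since no condition has a replicate. Alternatives changed the minimum length, short LADs, gaps, the extent of the other lists, the sex chromosomes and the overlap with genes.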

Additional observations from a re-analysis of the deposited data

How the results depend on the processing

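Of 83 alternative values over 10 results, 56 stayed within 1.5 times the value given, the Wilson interval for shares, or the SD across stretches for GC content. The double knockdown list held the most stretches alone under 8 of 9 settings, the exception being a minimum length of 50 kb. With a minimum of 20 kb there were 1429 stretches, against 879, 769 and 940 for the preadipocyte, adipocyte and Tmem120a knockdown lists. With a minimum of 50 kb there were 239 of 16.4 Mb with a median of 60.5 kb, meeting 231 genes, against 234, 249 and 126 stretches for the other lists. With LADs under 30 kb dropped from every list there were 1541 stretches, and 1068 for the Tmem120a knockdown list. With the other 3 lists extended by 10 kb the preadipocyte and adipocyte lists gave 943 and 739, and with gaps under 50 kb closed the adipocyte list gave 783. Fewer stretches under a longer minimum follow from its construction. The share of stretches that are whole LADs was 38.2% with no minimum, 56.5% at 20 kb, 52.3% at 50 kb, 39.5% with short LADs dropped, 44.6% with gaps under 50 kb closed and 56.4% with the other lists extended. The share joined on both sides was 8.12% at 20 kb and 7.25% with the other lists extended. The cause of these shifts was not tested. Of the genes met, 502 had at least 50% of the body, 247 the whole body and 590 the start inside.

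No paired analysis was possible because each condition has 1 library of each kind and no comparison was tested. There was no replicate to leave out. The lists hold no score or read count, so neither read depth nor LAD strength is known.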
